A study of Mus musculus with 24 samples.

Results

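The genes described here are the xenobiotic metabolism enzymes of mouse colorectal tissue: the cytochrome P450 (Cyp), UDP-glucuronosyltransferase (Ugt1 and Ugt2), cytosolic and mitochondrial glutathione S-transferase (Gst) and sulfotransferase (Sult) families. They were chosen by symbol and by measured level: a gene was kept where it reached 1 FPKM in at least 4 of 24 libraries. The same FPKM values are described below, so the level itself and the choice are not independent. FPKM counts fragments relative to transcript length and to all mapped fragments, so levels can be set side by side between genes. Of 159 symbols in these families, 68 were kept: 37 of 101 Cyp, 8 of 18 Ugt, 18 of 21 Gst and 5 of 19 Sult genes. They make up 68 of the 13799 genes that passed the same level rule, out of 24346 symbols.

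The libraries came from a chemical carcinogenesis experiment with azoxymethane and dextran sulfate sodium (AOM/DSS), in which a DNA-alkylating agent and an irritant that inflames the colon together produce colon tumors in mice. The label of the normal tissue names the same treatment, so there was no untreated control. The genotype label was c-MAF_KO or wild type, and the titles split it into 5 groups, each sampled as tumor and as normal colorectal tissue. There were 4 tumors from WT-young, 1 from WT-old and 3 from each of KO-8-homo, KO-1-hetero and KO-8-hetero, and each normal group held 2. The labels explain neither the numbers 1 and 8 nor the ages behind young and old, and give no sex, animal or driver of the deletion. KO and WT are used below for the labels, which gives 9 KO and 5 WT tumors beside 6 KO and 4 WT normal libraries.

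Enzymes of these families clear drugs, dietary toxins, steroids, bile acids and carcinogens in steps. P450 enzymes oxidize a compound, using electrons from P450 reductase. Ugt, Gst and Sult enzymes then attach glucuronic acid, glutathione or sulfate, and efflux pumps carry the product out of the cell. In the colon these enzymes are made mainly by the surface epithelium, and several are under control of the receptors AHR, PXR (Nr1i2) and CAR (Nr1i3), the factor HNF4A and the stress factor NRF2 (Nfe2l2). AOM itself needs oxidation by CYP2E1 to become the alkylating form.

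Several features of whole libraries bear on what follows. Maf, the gene in the genotype label, was not low in the KO libraries: it measured 2.62 to 7.40 FPKM in KO tumors, 1.63 to 7.26 in WT tumors, 1.52 to 6.27 in KO normal and 1.37 to 2.82 FPKM in WT normal tissue. KO therefore means the library labelled KO. Relative depth spanned 2.69-fold over the libraries, between 12074 and 13290 genes reached 1 FPKM, and the total fragments are unknown. The FPKM of all genes summed to 450172 to 612427 in tumors and 583474 to 1016810 in normal libraries, highest in KO-8-hetero normal 2. The main fits did not rescale the values for this. Xist, the RNA of the inactive X chromosome, was above 1 FPKM in 4 of 6 KO normal and 2 of 9 KO tumor libraries (both heterozygous groups) and in no WT library. The summed distal colon genes Hoxb13, Hoxd12 and Hoxd13 lay below 100 FPKM in 4 normal libraries and 2 tumors. The squamous markers Krt5, Krt14, Krt13 and Trp63 summed to 7596 FPKM in KO-8-hetero tumor 2 and 974 in WT-young tumor 2. The sum was 4.88 to 70.7 FPKM in the other tumors and at most 4.70 FPKM in normal tissue. WT-old tumor 1 had a leukocyte marker sum of 365 FPKM against 117 or less in the other tumors. Nothing in the labels says that the libraries of a group came from separate animals, so p-values measure the spread between these libraries, which may be technical. In such bulk samples, fewer cells of a type and less RNA per cell cannot be told apart.

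Of the 68 genes, 46 reached 1 FPKM in every library and 62 reached it in both tissues. Cyp1b1, Cyp21a1 and Cyp2b10 reached it in tumors only, and Cyp2c66, Ugt2b36 and Ugt2b5 in normal tissue only, so these 6 entered through the tissue in which they were high, Cyp1b1 through 5 KO tumors alone. Just inside the level rule were Ugt1a6b and Ugt2b5 (6 libraries each), Ugt2b36 and Cyp1b1 (5 each) and Cyp2c66 (4). Just outside were Cyp3a25 and Cyp3a44 (3 libraries each, at most 4.02 and 5.55 FPKM), followed by Cyp1a1, Sult4a1, Cyp4f39 and Cyp2a5 with 2 each. Of the 91 genes left out, 76 never reached 1 FPKM and 19 were at 0 in every library. Cyp1a1, the classical AHR-induced P450, peaked at 2.06 FPKM in WT-young normal 2.

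Most members were lower in tumors than in normal tissue. With the WT label, 35 of 68 fell and 4 rose in limma (adjusted p below 0.05, Benjamini-Hochberg over all 13799 genes), while 14.8% of all genes fell and 15.5% rose (30.4% either way). With the KO label, 42 fell and 5 rose, against 23.2% and 24.1% of all genes (47.2% either way). The members' median log2 fold change, tumor against normal on the log2(FPKM + 1) scale used throughout, was -0.88 under the WT label and -1.15 under KO, beside 0.02 and 0.02 over all genes tested. Over the 62 members that reached 1 FPKM in both tissues, 33 fell and 2 rose with the WT label, and 40 fell and 2 rose with the KO label. Both labels shared 34 falls (12.9% of all genes fell in both) and 3 rises (12.1%). These include Ugt2b5 and Ugt2b36 among the falls and Cyp21a1 and Cyp2b10 among the rises, which entered through the tissue in which they were high. In 16 members every one of the 14 tumors lay below every one of the 10 normal libraries, an order that 3.43% of all genes showed. In 1, Cyp21a1, every tumor lay above (3.28% of all genes), but it was chosen through tumors alone, so nothing is read from its order.

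**Figure D1:**
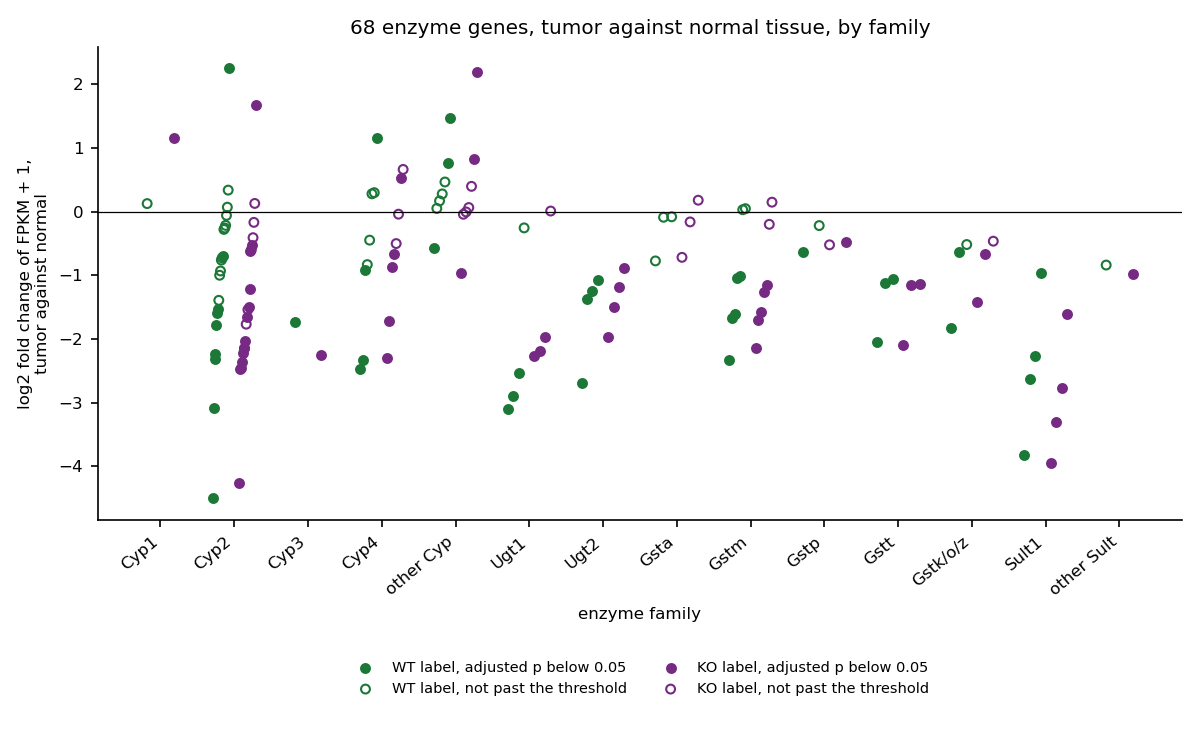
Each point is one of the 68 members in its family (x axis); the y axis is the log2 fold change of FPKM + 1, tumor against normal, with the WT label in green and the KO label in purple, filled where the limma adjusted p was below 0.05. The Ugt2, Gstt and Sult1 members all lie below 0 with both labels, Cyp2 and Cyp4 members spread on both sides, and no Gsta member passed the threshold.

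Among the P450 enzymes, 8 of the 20 Cyp2 members fell and 1 rose with the WT label, and 13 fell and 1 rose with the KO label. Cyp2c55, a colon-rich P450 that oxidizes arachidonic acid, had the highest mean level of the family and the largest fall of all members. In normal tissue it measured 768 and 464 FPKM in WT-young, 1815 and 265 in WT-old, 258 and 166 in KO-8-hetero, 199 and 292 in KO-1-hetero and 1457 and 1203 in KO-8-homo libraries. In tumors it measured 6.26, 12.3, 18.3 and 119.9 FPKM in WT-young, 81.7 in WT-old, 3.44, 3.43 and 84.2 in KO-8-hetero, 25.0, 21.8 and 51.7 in KO-1-hetero and 12.8, 36.6 and 29.7 in KO-8-homo. Every tumor was below every normal library, with a wide spread inside both tissues. On the log2 scale it fell by -4.50 (± 0.92 SE, limma adjusted p 0.00109) under the WT label and -4.26 (± 0.72 SE, limma adjusted p 7.6e-05) under KO.

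Cyp2c55 lies in the Cyp2c cluster at chr19:39007019-39042693 (plus strand; GENCODE positions on GRCm38, the mm10 build of the files), and 5 of the 8 members on chromosome 19 belong to this cluster. Cyp2c69 also fell, from a normal range from 1.69 to 11.8 FPKM (median 6.87) to a tumor range from 0.0183 to 2.17 FPKM (median 0.258); its log2 fold change was -2.24 (± 0.36 SE, limma adjusted p 0.000172) under the WT label and -2.47 (± 0.28 SE, limma adjusted p 1.4e-06) under KO. Cyp2c65 ranged from 4.01 to 234 FPKM (median 14.9) in normal tissue and from 1.49 to 56.4 FPKM (median 4.30) in tumors, with overlap. It passed the threshold with the WT label at -3.09 (± 1.08 SE, limma adjusted p 0.0345) and not with the KO label at -1.77 (± 0.85 SE, limma adjusted p 0.0909). Cyp2c68 ranged from 4.02 to 192 FPKM (median 80.9) in normal tissue and from 2.17 to 48.3 FPKM (median 12.2) in tumors; it passed with the KO label at -2.46 (± 0.68 SE, limma adjusted p 0.00563) and not with the WT label at -0.76 (± 0.87 SE, limma adjusted p 0.526). The Cyp2c68 value with the WT label moved to -0.26 without WT-old normal 2 and to -1.31 without WT-old normal 1, and it passed at -2.17 (adjusted p 0.0199) with only the libraries whose distal Hox sum was 100 FPKM or more. Leaving out any of WT-old normal 1 or WT-young normal 1, or of WT-young tumors 1, 2 or 3, ended the Cyp2c65 call (WT label, adjusted p up to 0.149), and leaving out KO-8-hetero normal 2 or tumor 3 gave a call with the KO label (adjusted p down to 0.0351). Cyp2c68 and Cyp2c69 share 43.3% and 54.8% of their 50-base words with other genes, mostly Cyp2c40, so reads may have been divided among these copies.

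The 150 bases before the RefSeq start of these 4 genes are printed here because the genes belong to one cluster, at separate places in it, and were ordered differently over the libraries. Capitals mark CAAAGTCCA, a published HNF4 binding sequence. All 4 are on chromosome 19 of GRCm38.p6 (RefSeq), 5′ to 3′ along the gene's strand: Cyp2c55 at chr19:39006869-39007018 and Cyp2c65 at chr19:39060856-39061005 on the plus strand, Cyp2c68 at chr19:39741102-39741251 and Cyp2c69 at chr19:39886770-39886919 on the minus strand.
Cyp2c55: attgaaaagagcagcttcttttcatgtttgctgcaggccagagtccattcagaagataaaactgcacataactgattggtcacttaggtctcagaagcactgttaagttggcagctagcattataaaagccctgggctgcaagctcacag
Cyp2c65: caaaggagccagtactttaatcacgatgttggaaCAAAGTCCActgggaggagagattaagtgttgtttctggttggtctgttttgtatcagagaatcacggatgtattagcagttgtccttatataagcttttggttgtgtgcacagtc
Cyp2c68: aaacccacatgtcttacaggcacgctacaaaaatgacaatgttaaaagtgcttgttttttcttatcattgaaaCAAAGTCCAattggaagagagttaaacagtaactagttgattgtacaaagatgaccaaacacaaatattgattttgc
Cyp2c69: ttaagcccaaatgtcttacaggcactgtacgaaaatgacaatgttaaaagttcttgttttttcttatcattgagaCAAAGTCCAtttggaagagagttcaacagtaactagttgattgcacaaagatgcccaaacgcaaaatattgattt
The exact letters CAAAGTCCA occurred in the window from 250 bases before to 50 after the start, on either strand, of 4 member genes: Cyp2c65, Cyp2c68, Cyp2c69 and Sult1b1. In all, 57 of the 68 members had 70 windows in the table, and 0.475% of all 32851 windows held the letters. A match is only a description, and its absence from the Cyp2c55 window says no more than that these letters are not there.

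Outside the Cyp2 family, the single Cyp3 member fell with both labels, and of 8 Cyp4 members 3 fell and 1 rose under the WT label and 4 fell and 1 rose under KO. Cyp3a13, the Cyp3 member, ranged from 28.6 to 68.9 FPKM (median 44.1) in normal tissue and from 2.84 to 27.4 FPKM (median 9.72) in tumors. Its tumor and normal libraries did not overlap, and the log2 fold change was -1.73 (± 0.34 SE, limma adjusted p 0.000821) under the WT label and -2.25 (± 0.27 SE, limma adjusted p 1.9e-06) under KO. Cyp2s1, a P450 of epithelia outside the liver, ranged from 24.5 to 70.0 FPKM (median 41.4) in normal tissue and from 3.46 to 26.0 FPKM (median 10.5) in tumors. On the log2 scale it fell by -1.58 (± 0.41 SE, limma adjusted p 0.00575) under the WT label and -2.14 (± 0.32 SE, limma adjusted p 2e-05) under KO, and its tissues overlapped only through WT-young tumor 4. Cyp2e1, the enzyme that activates AOM, was a low gene here: 9.62 and 3.47 FPKM in WT-young, 2.28 and 2.92 in WT-old, 21.6 and 2.38 in KO-8-hetero, 1.53 and 4.67 in KO-1-hetero and 16.1 and 15.5 in KO-8-homo normal libraries, against from 0.192 to 3.88 FPKM (median 0.461) in tumors. The log2 fold change of Cyp2e1 was -1.78 (± 0.53 SE, limma adjusted p 0.0149) under the WT label and -2.22 (± 0.42 SE, limma adjusted p 0.000229) under KO; without WT-young normal 1 the WT call ended (adjusted p 0.0633).

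Cyp4f14, a hydroxylase of leukotriene B4 and the Cyp4 member with the highest mean, ranged from 43.2 to 112 FPKM (median 53.7) in normal tissue and from 1.61 to 37.3 FPKM (median 11.3) in tumors, without overlap. Its log2 fold change was -2.33 (± 0.56 SE, limma adjusted p 0.00387) under the WT label and -2.30 (± 0.44 SE, limma adjusted p 0.000267) under KO. Cyp4b1, which oxidizes fatty acids and small aromatic toxins, separated the normal libraries themselves, with 27.7 and 2.38 FPKM in WT-young and 55.3 and 0.941 in WT-old. It passed the threshold at -2.48 (± 0.84 SE, limma adjusted p 0.03) under the WT label and -1.72 (± 0.66 SE, limma adjusted p 0.037) under KO, but 4 single libraries with the WT label (WT-old normal 1, WT-young normal 1, WT-young tumors 1 and 3) and 6 with the KO label (KO-8-hetero tumor 1 and all 5 KO-8-homo libraries) each ended its call when left out, with adjusted p up to 0.153 and 0.110. Cyp2d22, the mouse counterpart of human CYP2D6, ranged from 7.64 to 17.7 FPKM (median 10.1) in normal tissue and from 1.80 to 7.14 FPKM (median 3.08) in tumors, and fell by -1.53 (± 0.27 SE, limma adjusted p 0.000354) under the WT label and -1.49 (± 0.21 SE, limma adjusted p 1.2e-05) under KO on the log2 scale. Cyp39a1, an oxysterol hydroxylase, fell by a smaller step, -0.57 (± 0.16 SE, limma adjusted p 0.00862) under the WT label and -0.96 (± 0.12 SE, limma adjusted p 4.1e-06) under KO, and was lower in every tumor. The further members lower with both labels were Cyp2d26, Cyp2j9 and Cyp4f13. Cyp2d9, Cyp2d10, Cyp2d12, Cyp2d34, Cyp2r1 (a vitamin D 25-hydroxylase) and Cyp4f16 passed with the KO label only.

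A small group of P450 genes was higher in tumors, and 2 of the 3 called in both labels entered the list through tumors alone, which built in their difference. Cyp21a1, the steroid 21-hydroxylase, was close to 0 in normal tissue, at 0 to 0.0624 FPKM. In tumors it measured 6.70, 1.40, 2.96 and 1.27 FPKM in WT-young, 0.125 in WT-old, 8.47, 4.34 and 1.85 in KO-8-hetero, 1.20, 4.11 and 0.409 in KO-1-hetero and 7.39, 11.4 and 3.76 in KO-8-homo libraries. Every tumor exceeded every normal library, the WT-old tumor by the least. Cyp21a1 rose on the log2 scale by 1.47 (± 0.50 SE, limma adjusted p 0.0305) under the WT label and 2.19 (± 0.40 SE, limma adjusted p 0.000155) under KO. The WT call ended without any of 6 single libraries (both WT-old and both WT-young normals, WT-young tumors 1 and 3; adjusted p up to 0.0974). Its exons overlap the Tnxa pseudogene on the opposite strand and it shares 23.7% of its 50-base words with Cyp21a2-ps. The library kit kept strand, but whether counting used it is not given, so part of this value may belong to those copies.

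Cyp2b10, the P450 that CAR induces in liver, measured 8.38, 14.9, 5.42 and 4.36 FPKM in WT-young, 0.208 in WT-old, 8.60, 5.20 and 0.526 in KO-8-hetero, 0.383, 2.48 and 0.517 in KO-1-hetero and 5.57, 1.77 and 3.64 in KO-8-homo tumors. In normal tissue it lay between 0 and 0.770 FPKM, the highest being WT-young normal 2. All KO tumors were above all KO normal libraries, and all 4 WT-young tumors above all normal libraries, while the WT-old tumor lay inside the normal range. Cyp2b10 rose on the log2 scale by 2.25 (± 0.58 SE, limma adjusted p 0.00592) under the WT label and 1.67 (± 0.45 SE, limma adjusted p 0.00461) under KO. Since Cyp2b10 entered through tumors alone, its order and its rise were built in, and they are given as descriptions. Cyp7b1, an oxysterol 7-alpha-hydroxylase present in both tissues, ranged from 0.427 to 1.37 FPKM (median 0.912) in normal tissue and from 1.16 to 6.69 FPKM (median 2.23) in tumors. It rose by 0.77 (± 0.24 SE, limma adjusted p 0.0194) under the WT label and 0.82 (± 0.19 SE, limma adjusted p 0.00137) under KO; with the WT label the call ended without WT-old tumor 1 or WT-young normal 2 (adjusted p up to 0.0669). Cyp4f18, a leukotriene hydroxylase of neutrophils and other leukocytes, was 33.4 FPKM in WT-old tumor 1 and 2.80 to 9.50 FPKM in the other 13 tumors. That library also had the highest leukocyte marker sum, whose part in the value was not tested. Cyp4f18 passed with the WT label at 1.16 (± 0.38 SE, limma adjusted p 0.0245) and not with the KO label at 0.66 (± 0.30 SE, limma adjusted p 0.0719); the WT call ended without WT-old normal 1 or WT-young normal 2 (adjusted p up to 0.0875) and the lowest value with 1 library left out was 0.67. Cyp4f17 passed with the KO label only.

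Of the 7 P450 members outside families 1 to 4, 4 did not pass the test in either label. Cyp51, the lanosterol demethylase of cholesterol synthesis, ranged from 20.8 to 68.1 FPKM (median 39.5) in normal tissue and from 21.8 to 63.9 FPKM (median 39.6) in tumors. Cyp27a1, the sterol 27-hydroxylase, ranged from 9.73 to 33.8 FPKM (median 15.4) and from 8.68 to 33.7 FPKM (median 25.1), and Cyp26b1, which degrades retinoic acid, from 0.336 to 2.95 FPKM (median 0.666) and from 0.241 to 2.04 FPKM (median 0.870), normal tissue first. All 3 overlapped broadly between tissues. Cyp20a1 was the fourth, and Cyp2c66, Cyp2d13, Cyp2f2, Cyp2j6, Cyp2w1, Cyp4f40 and Cyp4v3 were the other P450 members without a call in either label.

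Of the 8 glucuronosyltransferases, 7 fell in tumors with both labels, and Ugt1a6b, near the level limit, did not pass. Without the WT-old libraries the WT calls of all 4 Ugt2 genes ended, and with only the libraries at a distal Hox sum of 100 FPKM or more those of Ugt1a1, Ugt2b35, Ugt2b36 and Ugt2b5. Ugt1a7c had the highest mean of the Ugt1 genes. In normal tissue it measured 149 and 114 FPKM in WT-young, 244 and 176 in WT-old, 166 and 119.7 in KO-8-hetero, 152 and 131 in KO-1-hetero and 158 and 186 in KO-8-homo libraries, and in tumors it ranged from 8.48 to 72.0 FPKM (median 33.2). The groups did not overlap, with a change of -2.54 (± 0.45 SE, limma adjusted p 0.000378) under the WT label and -2.19 (± 0.35 SE, limma adjusted p 4.7e-05) under KO. Ugt1a1, which conjugates bilirubin, varied more within normal tissue, from 2.55 to 91.8 FPKM (median 11.4), and ranged from 0.386 to 18.9 FPKM (median 1.07) in tumors. Its fall was -3.09 (± 0.79 SE, limma adjusted p 0.00591) under the WT label and -1.97 (± 0.62 SE, limma adjusted p 0.0128) under KO, and 4 tumors lay above the lowest normal library, KO-8-hetero tumor 2 furthest at 18.9 FPKM. Ugt1a6a, an enzyme of phenol glucuronidation, fell by -2.89 (± 0.56 SE, limma adjusted p 0.000754) under the WT label and -2.26 (± 0.44 SE, limma adjusted p 0.000307) under KO. The Ugt1 genes share their last exons: 58.2% of the 50-base words of Ugt1a1, 96.0% of those of Ugt1a6a and 54.2% of those of Ugt1a7c occur in other genes, so their separate levels rest on how the authors' counting divided shared reads.

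The Ugt2 genes, whose products handle steroids and bile acids, lie on chromosome 5. Ugt2b34 was the most abundant, from 62.9 to 239 FPKM (median 174) in normal tissue and from 26.2 to 115 FPKM (median 68.6) in tumors, and fell by -1.38 (± 0.31 SE, limma adjusted p 0.00228) under the WT label and -1.19 (± 0.24 SE, limma adjusted p 0.000497) under KO. Without the WT-old libraries its adjusted p was 0.0669 with the WT label. Ugt2b35 fell in every tumor below every normal library, from 12.2 to 23.0 FPKM (median 15.4) against from 1.70 to 10.6 FPKM (median 5.42), with log2 fold changes of -1.07 (± 0.29 SE, limma adjusted p 0.00788) under the WT label and -1.50 (± 0.23 SE, limma adjusted p 2.3e-05) under KO. Its WT call ended under both settings named above, with adjusted p up to 0.093 over all alternatives run. Ugt2b5 was split within normal tissue: 27.7 and 0.186 FPKM in WT-young, 45.7 and 0.178 in WT-old, 0.158 and 0.270 in KO-8-hetero, 1.06 and 2.69 in KO-1-hetero and 22.9 and 24.4 in KO-8-homo. No tumor exceeded 0.449 FPKM. It passed at -2.69 (± 0.95 SE, limma adjusted p 0.035) under the WT label and -1.96 (± 0.74 SE, limma adjusted p 0.0342) under KO, and since it entered through normal tissue alone this difference was built in. The WT call ended without WT-old normal 1, WT-young normal 1 or any of WT-young tumors 1 to 3 (adjusted p up to 0.175; log2 fold change as small as -1.75), and the KO call without either KO-8-homo normal library (adjusted p up to 0.110). Ugt2b36 behaved alike at lower levels, from 0.103 to 4.80 FPKM (median 0.964) in normal tissue and at most 0.273 FPKM in tumors.

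The glutathione transferases divided by class. All 3 theta genes and 5 of 7 mu genes fell with both labels, 1 of 2 pi genes fell, and none of the 3 alpha genes passed. Gstt1, which acts on small halogenated compounds, measured 70.6 and 60.9 FPKM in WT-young, 47.1 and 55.2 in WT-old, 74.2 and 82.1 in KO-8-hetero, 72.1 and 87.8 in KO-1-hetero and 36.2 and 50.01 in KO-8-homo normal libraries. In tumors it measured 8.84, 10.2, 8.13 and 14.6 FPKM in WT-young, 36.2 in WT-old, 7.08, 12.7 and 13.5 in KO-8-hetero, 24.2, 25.1 and 24.6 in KO-1-hetero and 9.01, 9.59 and 14.2 in KO-8-homo. The WT-old and KO-1-hetero tumors were the highest, and the WT-old tumor met the lowest normal value. Gstt1 changed by -2.05 (± 0.38 SE, limma adjusted p 0.000564) under the WT label and -2.10 (± 0.30 SE, limma adjusted p 1.3e-05) under KO. Gstt2 and Gstt3 fell in every tumor below every normal library.

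Gstm1, the most abundant mu enzyme, ranged from 207 to 389 FPKM (median 285) in normal tissue and from 58.6 to 225 FPKM (median 87.3) in tumors, with overlap through WT-old tumor 1 alone, and fell by -1.67 (± 0.28 SE, limma adjusted p 0.000203) under the WT label and -1.58 (± 0.22 SE, limma adjusted p 8.7e-06) under KO. Gstm3 showed the largest fall of the class, from 36.1 to 75.8 FPKM (median 51.4) against from 3.64 to 26.5 FPKM (median 9.37), or -2.33 (± 0.43 SE, limma adjusted p 0.00048) under the WT label and -2.15 (± 0.34 SE, limma adjusted p 3.4e-05) under KO. Gstm4 fell less: its normal libraries ranged from 12.1 to 20.99 FPKM (median 15.0) and its tumors from 5.28 to 7.54 FPKM (median 6.51), for -1.004 (± 0.12 SE, limma adjusted p 1.4e-05) under the WT label and -1.16 (± 0.10 SE, limma adjusted p 4.7e-08) under KO. Gstm2 and Gstm6 also fell, while Gstm5 and Gstm7 did not pass, with Gstm5 from 58.1 to 129 FPKM (median 76.2) in normal tissue and from 38.7 to 152 FPKM (median 96.7) in tumors. Gstk1, a mitochondrial and peroxisomal enzyme, fell by -1.82 (± 0.44 SE, limma adjusted p 0.00377) under the WT label and -1.42 (± 0.34 SE, limma adjusted p 0.00203) under KO, and Gstz1, an enzyme of tyrosine breakdown, by -0.64 (± 0.13 SE, limma adjusted p 0.000886) under the WT label and -0.67 (± 0.10 SE, limma adjusted p 2e-05) under KO.

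Gsto1, an omega enzyme that reduces dehydroascorbate, and Gsta4, which detoxifies the lipid aldehyde 4-hydroxynonenal, were among the most abundant members and did not pass. Gsto1 ranged from 338 to 586 FPKM (median 411) in normal tissue and from 179.8 to 2007 FPKM (median 277) in tumors. Its log2 fold changes were -0.52 (± 0.47 SE, limma adjusted p 0.415) under the WT label and -0.46 (± 0.37 SE, limma adjusted p 0.307) under KO. Without KO-8-hetero tumor 2, at 2007 FPKM, it fell with the KO label by -0.79 (limma adjusted p 0.00468). With KO-8-hetero tumor 2 and WT-young tumor 2 both left out, the WT label gave -0.78 (limma adjusted p 0.0142). Leaving out any single WT library gave no WT call (limma adjusted p 0.228 or more), and both labels share the estimate of the spread. Gsta4 ranged from 78.0 to 160.2 FPKM (median 91.4) in normal tissue and from 44.2 to 464 FPKM (median 97.0) in tumors. Gsta1 and Gsta3 overlapped between tissues as well, and 89.7% of the 50-base words of Gsta1 occur in other genes.

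Gstp1, the pi enzyme, ranged from 125 to 317 FPKM (median 174) in normal tissue and from 85.8 to 184 FPKM (median 132) in tumors. It passed with the largest adjusted p of the called members in each label, -0.64 (± 0.24 SE, limma adjusted p 0.0485) under the WT label and -0.47 (± 0.19 SE, limma adjusted p 0.0443) under KO, and each call ended when single libraries were left out: 5 of 9 with the WT label (both WT-old normals, WT-young tumors 1 to 3) and 9 of 15 with the KO label (KO-1-hetero normal 2, both KO-8-hetero normals, KO-8-hetero tumors 1 and 2, KO-8-homo normal 2 and the KO-8-homo tumors), with adjusted p up to 0.194 and 0.120. Its neighbour Gstp2 did not pass. The pair share many 50-base words: 51.0% of those of Gstp1 occur in Gstp2, and 44.7% of those of Gstp2 occur in Gstp1 (50.4% in any other gene). Their promoters are shown because both hold GTCAGCA, the reverse complement of TGCTGAC, the core of the element that MAF proteins bind; it is in capitals. Both windows are the 150 bases before the RefSeq start on the minus strand of GRCm38.p6, Gstp1 at chr19:4037913-4038062 and Gstp2 at chr19:4042222-4042371. GENCODE starts both genes further upstream, Gstp1 at 4037985 and Gstp2 at 4046023, so the marked letters lie inside both GENCODE gene spans.
Gstp1: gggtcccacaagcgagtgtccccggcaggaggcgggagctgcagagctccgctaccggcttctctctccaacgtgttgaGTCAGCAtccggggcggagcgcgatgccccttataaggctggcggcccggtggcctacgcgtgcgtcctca
Gstp2: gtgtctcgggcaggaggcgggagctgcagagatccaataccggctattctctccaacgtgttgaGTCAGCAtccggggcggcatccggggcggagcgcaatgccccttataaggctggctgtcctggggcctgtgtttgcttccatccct
TGCTGAC on either strand was in the windows of 4 member genes, Cyp51, Gstm2, Gstp1 and Gstp2, and in 4.67% of all windows. None of these 4 passed the comparison of KO with WT in tumors or in normal tissue, but only 0.00725% and 0% of all genes did. Nothing about MAF is read from this. The antioxidant response element TGACNNNGC was found in 8 member genes (12.4% of all windows) and the AHR core GCGTG in 18 (32.4% of all windows).

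Among the sulfotransferases, all 4 Sult1 genes fell with both labels. Their summed level ranged from 413.9 to 765 FPKM in normal tissue and from 23.8 to 188 FPKM in tumors. Sult1a1, which sulfates phenols, measured 371 and 282 FPKM in WT-young, 374 and 269 in WT-old, 210.0 and 383 in KO-8-hetero, 221 and 238 in KO-1-hetero and 195 and 248 in KO-8-homo normal libraries. In tumors it measured 6.42, 17.2, 10.6 and 59.2 FPKM in WT-young, 63.5 in WT-old, 6.36, 6.79 and 20.9 in KO-8-hetero, 20.6, 13.0 and 34.2 in KO-1-hetero and 10.5, 12.7 and 27.2 in KO-8-homo. No tumor came near the normal range. On the log2 scale Sult1a1 fell by -3.82 (± 0.52 SE, limma adjusted p 3.6e-05) under the WT label and -3.95 (± 0.41 SE, limma adjusted p 4.7e-07) under KO. Part of its exons overlaps Sgf29 on the opposite strand.

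Sult1d1, which sulfates catecholamines, ranged from 63.8 to 168 FPKM (median 90.9) in normal tissue and from 2.59 to 35.04 FPKM (median 11.6) in tumors, a fall of -2.63 (± 0.45 SE, limma adjusted p 0.000268) under the WT label and -3.31 (± 0.35 SE, limma adjusted p 6.2e-07) under KO. Sult1c2 ranged from 35.6 to 100.01 FPKM (median 53.9) and from 1.72 to 26.6 FPKM (median 9.79), again apart, with -2.26 (± 0.45 SE, limma adjusted p 0.000909) under the WT label and -2.76 (± 0.35 SE, limma adjusted p 4.1e-06) under KO. Sult1b1, a sulfotransferase of thyroid hormones and phenols, fell less, from 38.0 to 153 FPKM (median 73.4) against from 13.1 to 66.6 FPKM (median 29.3), or -0.97 (± 0.36 SE, limma adjusted p 0.0462) under the WT label and -1.61 (± 0.28 SE, limma adjusted p 0.000117) under KO. Its WT call ended without any of 7 of the 9 WT libraries (all but WT-young normal 1 and WT-young tumor 4; adjusted p up to 0.129). Sult2b1, which sulfates cholesterol and is strongest in squamous skin, passed with the KO label at -0.98 (± 0.30 SE, limma adjusted p 0.00973) and not with the WT label at -0.84 (± 0.38 SE, limma adjusted p 0.0927), where it passed without WT-young normal 1 (adjusted p 0.0261).

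**Figure D2:**
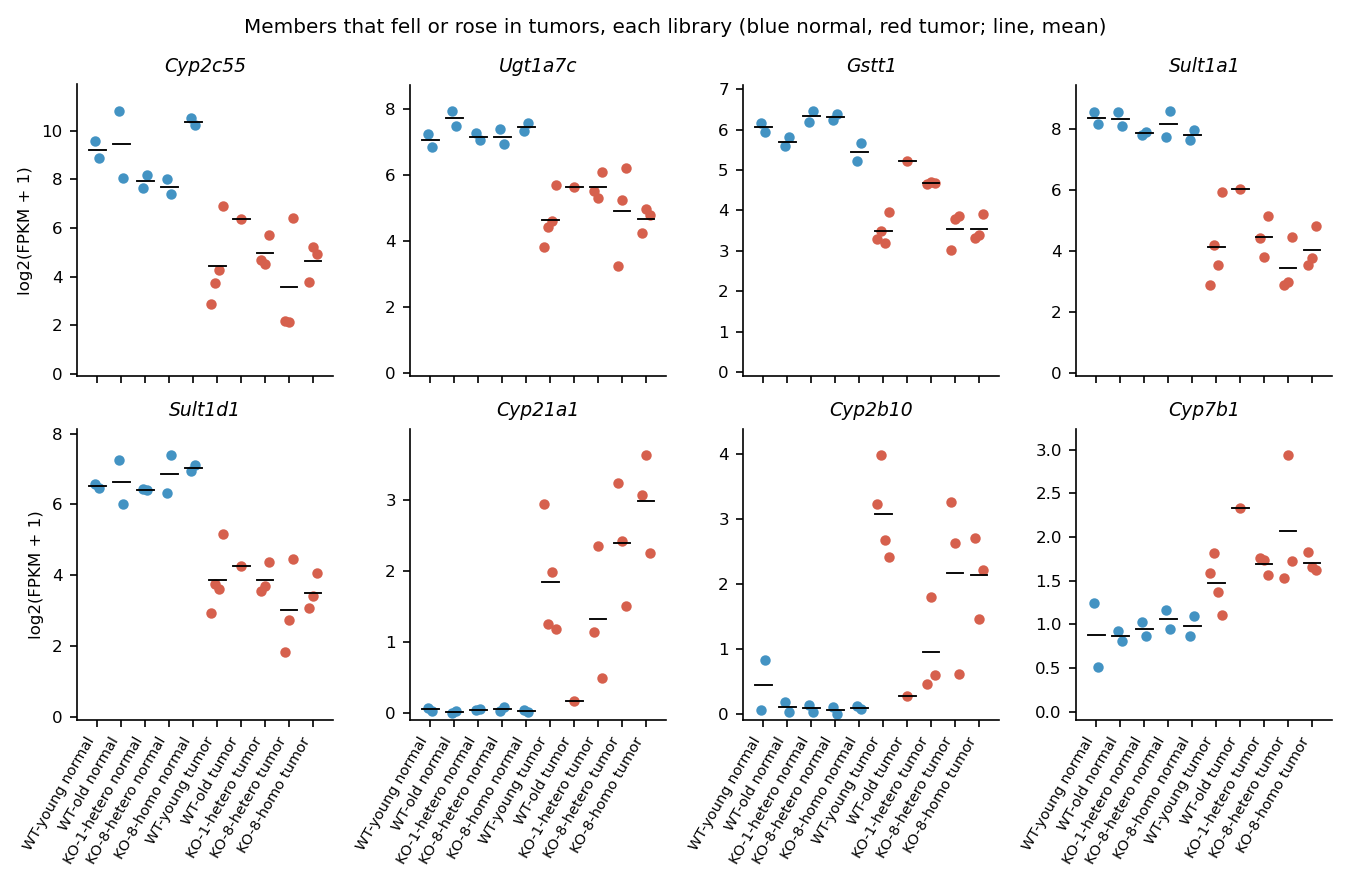
Points are single libraries (blue normal, red tumor) of the 10 groups on the x axis, the y axis is log2(FPKM + 1), and lines are group means, for 5 members that fell and 3 that rose. Sult1a1 and Sult1d1 show no overlap between tissues, Gstt1 is highest among tumors in the WT-old and KO-1-hetero groups, and Cyp21a1 is near 0 in all normal libraries and in the WT-old tumor at 0.125 FPKM.

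The genes that supply or regulate these enzymes were described from lists of general knowledge. Beside the counts here and below, 14.8% of all genes fell and 15.5% rose under the WT label. Under KO, 23.2% fell and 24.1% rose. Of 13 genes for cofactors and redox partners, none rose, 8 fell under the WT label and 6 under KO. Ugdh, which makes UDP-glucuronic acid for the Ugt enzymes, changed by -2.52 and -2.27 (limma adjusted p 6.1e-06 and 2.7e-07, WT label first here and below). Papss1, a synthase of the sulfate donor, changed by -0.70 and -0.93 (adjusted p 0.000601 and 8.8e-07), and Ugp2, which makes UDP-glucose, by -0.80 and -0.93 (adjusted p 0.000679 and 5e-06). Gclm, a subunit of the glutathione synthesis enzyme, fell with the WT label (-0.78, adjusted p 0.000664) and did not pass with the KO label (-0.20, adjusted p 0.158). The P450 reductase Por did not pass with either (-0.73 and -0.50, adjusted p 0.0881 and 0.106).

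Of 12 receptors and partners, 11 were tested: 7 fell with the WT label, and 5 fell and 2 rose with the KO label. Hnf4a changed by -1.15 and -0.95 (limma adjusted p 0.00277 and 0.000921), the PXR gene Nr1i2 by -0.85 and -0.94 (adjusted p 0.015 and 0.000706), and the vitamin D receptor Vdr by -1.64 and -1.59 (adjusted p 0.00289 and 0.000229). Ahr rose with the KO label (0.89, adjusted p 9.7e-05) and did not pass with the WT label (0.49, adjusted p 0.0622). The CAR gene Nr1i3 did not pass with either (0.12 and -0.33, adjusted p 0.83 and 0.359). Of 6 AHR targets, 3 were tested: 1 fell under the WT label, while under KO 1 rose (Cyp1b1, which was chosen through KO tumors) and 1 fell (Nqo1).

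Of the 12 NRF2 targets outside the families, 2 rose and 3 fell with the WT label, and 3 rose and 2 fell with the KO label. Over all genes 15.5% rose and 14.8% fell with the WT label, and 24.1% and 23.2% with the KO label. With so few genes the counts lie near these shares, and nothing is read from them about the list. Hmox1, which degrades heme, rose by 2.09 and 2.07 (limma adjusted p 0.00092 and 3.8e-05) and Slc7a11, the cystine carrier, by 1.80 and 1.61 (adjusted p 0.00022 and 1.7e-05). Nqo1 fell by -1.03 and -0.77 (adjusted p 0.0255 and 0.0219). Of 33 tested drug-metabolizing enzymes of other families, 19 fell and none rose under the WT label, and 27 fell and 1 rose with the KO label. The carboxylesterase Ces1f changed by -3.13 and -2.50 (adjusted p 3e-05 and 5.3e-06), the aldo-keto reductase Akr1c19 by -2.60 and -2.20 (adjusted p 3.7e-05 and 4.1e-06) and the soluble epoxide hydrolase Ephx2 by -1.68 and -1.73 (adjusted p 0.000117 and 1.9e-06). All 7 efflux transporters passed in both labels, 4 higher and 3 lower. Abcc4 rose by 1.52 and 1.77 (adjusted p 0.0007 and 4.8e-06), whereas Abcb1a fell by -2.20 and -1.68 (adjusted p 0.000775 and 0.000395) and Abcg2 by -0.97 and -1.46 (adjusted p 0.00983 and 1.5e-05).

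Markers of several cell types moved with the same comparison. Over all genes, 14.8% fell and 15.5% rose under the WT label, and 23.2% fell and 24.1% rose under KO. The 8 absorptive colonocyte markers summed to 597 to 4021 FPKM in tumors and 4593 to 19776 FPKM in normal tissue, without overlap, and 5 of 8 fell under the WT label and 6 of 8 under KO. The 8 general epithelial markers overlapped (4263 to 11024 FPKM in tumors, 6106 to 15196 in normal tissue), and 0 of 8 passed under the WT label and 2 of 8 under KO, both lower. The KO count is near the share of all genes that fell. All 7 smooth muscle markers fell with both labels (172.6 to 2879 FPKM in tumors, 927 to 7123 in normal tissue), and 3 of 6 leukocyte markers rose with both (41.8 to 365 FPKM and 27.6 to 62.3 FPKM). Of 6 fibroblast markers 1 rose under the WT label, and 4 rose and 1 fell under KO (293 to 1132 FPKM in tumors, 181 to 537 in normal tissue). Of 3 tested adipocyte markers 1 fell under the WT label and all 3 under KO (0.514 to 13.2 FPKM in tumors, 3.91 to 53.2 in normal tissue for the list of 4). No marker of these lists was at 0 throughout a tissue. Their part in the enzyme differences was not tested.

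Normal libraries differed from each other in an orderly way for a subset of members. The 4 normal libraries with a low distal Hox sum were KO-8-homo normal 1 (6.71 FPKM), WT-old normal 1 (8.60), KO-8-homo normal 2 (20.8) and WT-young normal 1 (36.9), and the other 6 lay between 187.9 and 733 FPKM. This split was chosen after the values were seen and was not tested. In 11 members the 4 low-Hox libraries all lay above the other 6 (5.11% of all genes did): Cyp2c55, Cyp2c65, Cyp2c66, Cyp2j6, Cyp4b1, Gstk1, Sult1c2, Ugt1a1, Ugt1a6a, Ugt2b36 and Ugt2b5. In 8 they all lay below (4.09% of all genes): Cyp2c68, Cyp2d10, Cyp2d12, Cyp2d13, Cyp2d34, Cyp2f2, Gstm7 and Sult1b1. Cyp2c65 measured 172, 234, 143 and 111 FPKM in the 4 low-Hox libraries and 4.01 to 17.6 FPKM in the other 6. Cyp2f2, a naphthalene-oxidizing P450 known from lung airways, ran the other way, at 0.940, 0.744, 1.65 and 1.21 FPKM against 18.4 to 43.3 FPKM. Cyp2f2 lies on chromosome 7, outside the Cyp2c cluster whose promoters are printed above. Within that cluster both directions occurred, as Cyp2c68 measured 4.02 to 18.8 FPKM in the low-Hox libraries and 80.3 to 192 FPKM in the others.

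**Figure D3:**
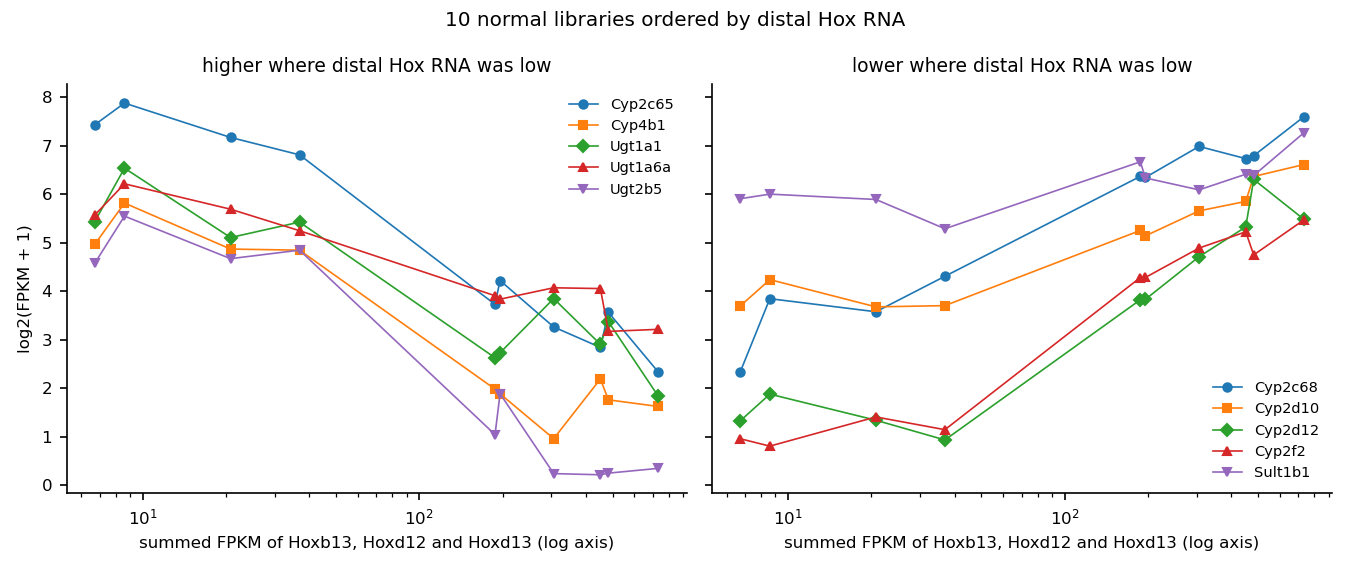
The 10 normal libraries are placed by their summed FPKM of Hoxb13, Hoxd12 and Hoxd13 (x, log axis) against log2(FPKM + 1) of 5 members with high values (left) and 5 with low values (right) in the 4 libraries below 100 FPKM; lines join libraries in that order. Ugt2b5 drops to 0.158 to 2.69 FPKM in the 6 libraries at the right of the left panel, and Cyp2f2 is at or below 1.65 FPKM in the 4 at the left of the right panel.

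Both KO-8-homo normal libraries were in the low-Hox set and all 4 heterozygous normal libraries were outside it, so genotype group and this split cannot be told apart among the KO normals. The 2 tumors with a low Hox sum, KO-8-hetero tumor 3 (16.5 FPKM) and KO-1-hetero tumor 3 (39.6 FPKM), held the highest Cyp2c65 levels of all tumors, 56.4 and 22.9 FPKM. The same 2 tumors were the ones with Xist, at 48.8 and 49.9 FPKM. With only the libraries at 100 FPKM or more, 25 of the 39 WT calls and 45 of the 47 KO calls remained, and 5 members each were newly called; the calls of Ugt1a1 and Cyp4b1 ended in both labels (adjusted p 0.101 and 0.59 under the WT label, 0.0974 and 0.205 under KO). The other WT calls that ended were those of Cyp21a1, Cyp2b10, Cyp2c65, Cyp2e1, Cyp2j9, Cyp4f18, Gstk1, Gstp1, Gstz1, Ugt2b35, Ugt2b36 and Ugt2b5. Without the WT-old libraries 27 of the 39 WT calls remained, and besides the Ugt2 genes those of Cyp21a1, Cyp2c65, Cyp4b1, Cyp7b1, Gstk1, Gstm6, Gstp1 and Sult1b1 ended. Leaving out the 6 libraries with Xist, after which both KO normal libraries left are KO-8-homo, ended 13 KO calls and gave 2, with 36 members called. Among those that ended were Cyp1b1 (adjusted p 0.16), Cyp2b10 (0.0526), Cyp7b1 (0.055), Gstp1 (0.204), Sult2b1 (0.14) and Cyp2c68, whose log2 fold change turned to 0.31 (adjusted p 0.8).

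Single tumors carried the highest values of many members. KO-8-hetero tumor 2, the library with 7596 FPKM of squamous markers, was the highest tumor for 13 members. Gsto1 measured 2007 FPKM there, 587 in WT-young tumor 2 and 179.8 to 365 FPKM in the other 12 tumors. Gsta4 measured 464 FPKM there and 44.2 to 168 elsewhere, and Cyp2f2 114 FPKM against 0.348 to 41.4. For Gsto1, Gsta4, Cyp2f2 and Ugt1a6b the next highest tumor was the other one with a high squamous marker sum, WT-young tumor 2. Most of the 13 members did not share this order. The next highest was WT-old tumor 1 for Ugt1a1, Cyp4b1 and Cyp7b1, and WT-young tumor 4 for Gsta1, Sult2b1 and Cyp51. It was another KO tumor for Cyp2e1, Cyp2j9 and Cyp26b1. Sult1a1, which is not among the 13, was at 6.79 FPKM in KO-8-hetero tumor 2. The part of squamous tissue in these values was not tested. WT-young tumor 4 was the highest tumor for 19 members, among them Cyp2c55, Cyp3a13 and the 3 sulfotransferases Sult1b1, Sult1c2 and Sult1d1; it had the highest epithelial (11024 FPKM) and the lowest smooth muscle (172.6 FPKM) marker sum among tumors. WT-old tumor 1 was the highest for 11 members, including Gstm1, Gstt1 and Sult1a1.

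**Figure D4:**
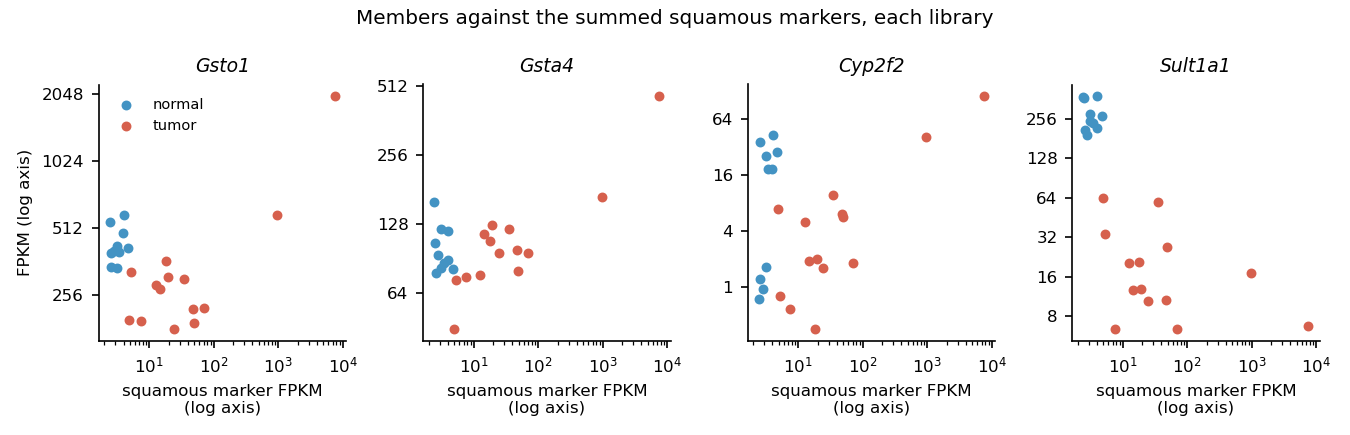
Each point is a library (blue normal, red tumor); the x axis is the summed FPKM of Krt5, Krt14, Krt13 and Trp63 and the y axis the FPKM of the member, both on log axes. The 2 tumors at the right, at 974 and 7596 FPKM of markers, have the highest Gsto1, Gsta4 and Cyp2f2 of the tumors, and Sult1a1 at 17.2 and 6.79 FPKM there lies within the range of the other tumors. Most members that peaked in KO-8-hetero tumor 2 did not have WT-young tumor 2 second.

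No member passed the comparison of all KO with all WT libraries in either tissue. In tumors, 0 of 68 members differed between KO and WT in limma (0.00725% of all genes did), with 10 members and 1147 of all genes at an unadjusted p below 0.05. In normal tissue 0 members passed (0% of all genes), and 0 members beside 645 of all genes were below 0.05 unadjusted. The interaction of tissue and label, which asks whether the tumor difference depends on the label, gave 0 members (0% of all genes), with 1 member and 654 genes below 0.05 unadjusted; the calls present in one label and absent in the other are therefore not shown to differ. The members' median log2 fold change, KO against WT, was -0.13 in tumors and -0.07 in normal tissue, beside -0.01 and -0.01 over all genes.

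The smallest p in tumors were those of Cyp1b1 and Cyp3a13. Cyp1b1, the AHR-induced P450 that activates polycyclic carcinogens, measured 0.404, 0.535, 0.118 and 0.0428 FPKM in WT-young, 0.0497 in WT-old, 0.0649, 1.24 and 2.96 in KO-8-hetero, 0.810, 0.999 and 1.46 in KO-1-hetero and 5.11, 5.51 and 0.569 in KO-8-homo tumors, and 0.0714 to 0.308 FPKM in normal tissue. KO tumors averaged 2.08 ± 1.999 FPKM (SD, n = 9) and WT tumors 0.230 ± 0.225 FPKM (SD, n = 5); 8 of 9 KO tumors exceeded all 5 WT tumors, and KO-8-hetero tumor 1 did not. The 5 libraries that carried Cyp1b1 past the level rule were all KO tumors, so its differences between KO and WT tumors, and between KO tumors and normal tissue, were built in and are given as descriptions. The log2 fold change was 1.09 (± 0.31 SE) between KO and WT tumors, 1.16 (± 0.29 SE) between tumor and normal with the KO label and 0.13 (± 0.37 SE) with the WT label. Cyp3a13 was at -0.90 (± 0.28 SE, limma adjusted p 0.419), and a two-sided exact permutation test over 2002 splits gave p = 0.0300 (0.450 adjusted over the 30 members tested this way). In normal tissue the smallest were Ugt2b34, -0.55 (± 0.30 SE, limma adjusted p 1.0), and Ugt1a1, -1.36 (± 0.76 SE, limma adjusted p 1.0). Without WT-old normal 1 the Ugt1a1 value moved to -0.78, and without KO-8-hetero normal 2 that of Ugt2b34 moved to -0.33. In the interaction, after Cyp1b1, the smallest was Cyp39a1 at -0.39 (± 0.20 SE, limma adjusted p 0.986).

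Each KO group was also set against the 4 WT-young tumors, which the 3 comparisons share. KO-1-hetero tumors differed in 3 members (2.88% of all genes; 1.63% higher and 1.25% lower), KO-8-hetero in 0 (0.00725%; 11 members and 961 genes below 0.05 unadjusted in limma) and KO-8-homo in 0 (0.457%; 6 members and 1399 genes unadjusted). Gstt1 was 24.2 to 25.1 FPKM in KO-1-hetero against 8.13 to 14.6 FPKM in WT-young tumors, 1.20 (± 0.21 SE, limma adjusted p 0.0109). Cyp2w1, a P450 known from fetal gut and colon tumors, was 2.14, 2.55 and 1.46 FPKM against 0.566, 0.712, 0.637 and 0.907, 0.83 (± 0.14 SE, limma adjusted p 0.00782). Cyp2b10 was lower, -2.13 (± 0.51 SE, limma adjusted p 0.0366), with the values given above. In all 3 the KO-1-hetero and WT-young tumors did not overlap, as in 27.4% of all genes. Without KO-1-hetero tumor 1 all 3 calls ended (limma adjusted p 0.0603 for Cyp2w1). Gstt1 and Cyp2b10 also ended without KO-1-hetero tumor 3, and Cyp2b10 without any of WT-young tumors 1 to 3 (adjusted p up to 0.0659 for Gstt1 and 0.185 for Cyp2b10). KO-1-hetero tumors had a lower distal Hox median than WT-young tumors (156 against 206 FPKM) and 2 of 6 leukocyte and 2 of 7 smooth muscle markers higher, whose part was not tested.

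In KO-8-homo tumors Cyp1b1 came first, at 1.66 (± 0.42 SE), with all 3 tumors above all 4 WT-young tumors (21.2% of all genes did not overlap in this comparison). KO-8-homo tumors 1 and 2 are among the 5 libraries through which it was chosen, so nothing is read from this order, nor from its call without KO-8-homo tumor 3 (2.33). Cyp21a1 followed at 1.14 (± 0.47 SE, limma adjusted p 0.41). In KO-8-hetero tumors the smallest were Cyp2c68, -2.41 (± 0.71 SE, limma adjusted p 0.657), and Gstp2, -0.54 (± 0.22 SE, limma adjusted p 0.705), which moved to -0.32 without KO-8-hetero tumor 2. Without KO-8-hetero tumor 1, the deepest library at 1.86 times the median depth, 3 members passed (Cyp27a1, Gstm7 and Ugt2b35), all lower. They were chosen after their values were seen. The share of all genes that passed in that fit is not given here, so nothing is read from the count.

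**Figure D5:**
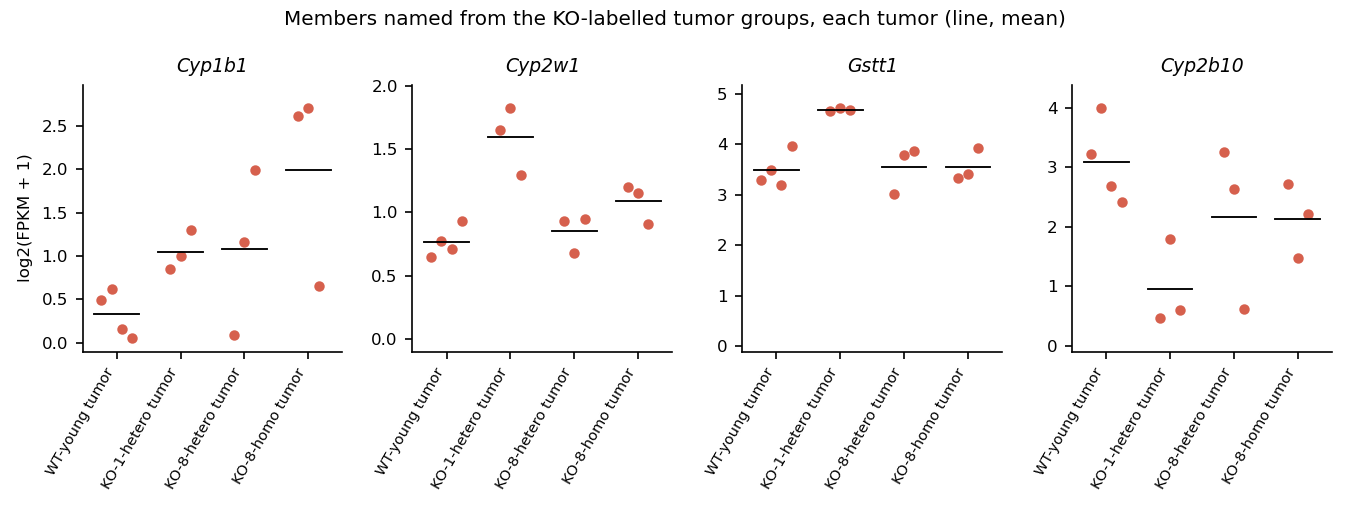
Single tumors (points) and group means (lines) of the 4 tumor groups on the x axis, with log2(FPKM + 1) on the y axis. Gstt1 and Cyp2w1 are high and Cyp2b10 low in the 3 KO-1-hetero tumors, and Cyp1b1 is highest in KO-8-homo tumors 1 and 2 at 5.11 and 5.51 FPKM.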

How the data were processed

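RNA was measured by sequencing in 24 libraries. The authors deposited 1 table of FPKM values per library; the submitters' processing notes name TopHat2 2.1.1, Bowtie2 2.2.8, SAMtools 0.1.18, Cuffdiff 2.2.1 and the build mm10, without the role of each. The annotation, the settings and whether counting used strand are not given in the sources used here. FPKM keep no counts, so no count model was used; relative depth was read from the smallest values of low genes.

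Groups were taken from the sample labels. Values were transformed to log2(FPKM + 1) and genes with at least 1 FPKM in at least 4 libraries kept. limma 3.58.1 (R 4.3.3) with an intensity trend was fitted over all 24 libraries to the 4 combinations of tissue and genotype label, and to the 10 groups for the single KO groups, with Benjamini-Hochberg adjustment over 13799 genes and a threshold of 0.05. For 30 members an exact two-sided permutation test compared KO with WT tumors. The fits were tested on simulated data. Shared 50-base words and positions came from GENCODE transcripts on GRCm38, and promoters from RefSeq on GRCm38.p6. Tables and plots used Python 3.11.15, pandas 2.3.3, numpy 2.4.6 and matplotlib 3.10.9.

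Genes named with values were a list chosen by name, the 5 largest rises and falls without overlap per label, the called members of the other comparisons (or the 2 smallest p), the highest member per family and up to 3 genes per pathway list; further ones were named after their values were seen. The members and lists were chosen with earlier results of these data known. Alternatives were a pseudocount of 0.1, no filter, other scalings, no trend, other models, a fold threshold, libraries left out and replicate blocks.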

Additional observations from a re-analysis of the deposited data

Results flagged for a closer look

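Dixon's test was run on the FPKM of 152 group values of the 38 named members. In 16 (10.5%), 1 library stood apart from the others of its group. The test flags about 1 in 20 for independent, normally distributed values. FPKM need not be normal and the members share libraries, so 10.5% is not read as an excess over chance. No explanation was tested.

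KO-8-hetero tumor 2, the tumor with the highest squamous marker sum, stood apart from the other KO tumors in 7 members. It held 2007 FPKM of Gsto1 (next highest KO tumor 365), 464 FPKM of Gsta4 (next 127), 27.6 FPKM of Sult2b1 (next 15.3), 18.9 FPKM of Ugt1a1 (next 3.37), 9.41 FPKM of Cyp4b1 (next 1.56), 6.69 FPKM of Cyp7b1 (next 2.56) and 3.88 FPKM of Cyp2e1 (next 1.34). Among WT tumors, WT-young tumor 2, the other tumor with a high squamous marker sum, stood apart with 587 FPKM of Gsto1 (next 302) and 1.14 FPKM of Cyp2e1 (next 0.411).

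WT-old tumor 1 held 36.2 FPKM of Gstt1 (next WT tumor 14.6), and WT-young tumor 4 held 115 FPKM of Ugt2b34 (next 76.8). In WT normal tissue, WT-young normal 1 held 9.62 FPKM of Cyp2e1 (next 3.47) and 0.175 FPKM of Cyp1b1 (next 0.0961), and WT-young normal 2 held 0.770 FPKM of Cyp2b10 (next 0.139). In KO normal tissue, KO-8-hetero normal 2 held 383 FPKM of Sult1a1 (next 248) and KO-8-homo normal 1 held 2.95 FPKM of Cyp26b1 (next 1.00).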

How the results depend on the processing

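The number of members called in tumor against normal stayed within 1.5 times its value under every alternative run. With the WT label (39) it was 27 without the WT-old libraries, 30 with only libraries at a distal Hox sum of 100 FPKM or more, 32 with an added log2 fold change of at least 1, 35 without a filter, 36 without the squamous tumors and 30 to 41 with 1 library left out. With the KO label (47) it was 36 without the libraries with Xist, 36 with the fold threshold, 50 with the Hox limit and 44 to 49 with 1 library left out. The Hox and squamous settings were chosen after seeing the data. For KO-1-hetero tumors (3 called) the count was 1 with the Hox limit, 1 without the libraries with Xist and 0 to 3 with 1 library left out; for KO-8-hetero tumors it was 0 to 3 and for KO-8-homo tumors 0 to 1. The count for KO against WT and for the interaction was 0 under every setting. Direction reversed for Cyp2c68 (KO label, 0.31) and for Ugt1a1 in KO against WT normal tissue (0.48) without the libraries with Xist, and for Gsto1 (KO label, 0.013) with quantile normalization. The cause was not tested.

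With title group and number together as a block, 30 members were called with the WT label (29 of them shared), 44 with the KO label (42 shared) and 0 in the interaction. In that fit a library without a partner of the same title and number adds nothing to the tumor difference. With the number alone as a block, 4 members were called in KO-1-hetero tumors and 0 in the other comparisons of KO with WT. Of the 8 pairs of tumor and normal libraries with a shared title and number that could be checked, 1 had a correlation of deviations above 0.1 (range -0.159 to 0.355). The WT-old pair could not be checked, because a group with 1 tumor gives no deviation. With 2 normal libraries per group this check cannot tell whether the numbers pair the libraries, and the labels do not say.

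FPKM without counts give no interval for single values, and members near 1 FPKM, such as Ugt1a6b and Cyp2c66, lie close to the level limit. Groups of 2 to 4 libraries, and 1 WT-old tumor, limit the single-group comparisons. Members with shared sequence were divided by the authors' counting.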
